A study of Mus musculus with 6 samples.

Results

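The oligoadenylate synthetase (OAS) family of the mouse was followed on 6 Affymetrix gene-level arrays of embryonic fibroblasts, 3 from cells with the hairpin construct shARF and 3 from cells with the control hairpin shSCR. The family was taken as 8 genes, chosen by gene symbol in the platform's probe annotation, of 19288 genes named on the array. They were Oas1a, Oas1b, Oas1c, Oas1g, Oas2, Oas3, Oasl1 and Oasl2. Of these, 7 had a probeset (a set of probes read as 1 value) annotated to them alone, and Oas1g was named only on a probeset that it shared with Oas1a. All 8 probesets lay above the detection level on all 6 arrays and entered the test. As the detection level each array's own 25th percentile was used, a signal of 14.1 to 14.9.

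Cells of both groups carried the line name dp53R in the series title and the word Ras in the sample titles, so these features were common to shARF and shSCR. A short hairpin RNA lowers the transcript that it matches without removing the gene, and ARF is a tumour suppressor protein encoded at Cdkn2a. Strain, age of the embryos and the number of cell lines behind the replicates are not given in the sources used here. The labels call the replicates biological, and p-values measure the spread between these samples only, which may be technical.

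OAS proteins are sensors of double-stranded RNA, the usual trace of a replicating virus. Once bound to it, the active enzymes join ATP into short chains with 2'-5' links, called 2-5A, a second messenger that leads to the cutting of cellular and viral RNA. The genes are classical targets of type I interferon, which acts through ISGF3, a complex that includes STAT2 and IRF9 and binds a DNA element named ISRE. In fibroblasts their basal transcription is usually low, and interferon raises it.

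Markers of the cell type and of the hairpin were checked first. The signal of Cdkn2a was 315, 254 and 286 in shARF, against 535, 539 and 516 in shSCR. All 10 fibroblast markers lay above the detection level on every array, with summed signals of 20896 to 21554 in shARF and 18853 to 20545 in shSCR. Of 10 macrophage markers 3 did so, and Ptprc, Csf1r, Adgre1, Itgam and Lyz2, read by their single-gene probesets, were below it on all 6 arrays. The macrophage sums were 243 to 276 in shARF and 227 to 255 in shSCR. Of 6 epithelial markers 3 were above the level on every array, and Cdh1 was below it throughout. The epithelial sums were 340 to 475 in shARF and 231 to 263 in shSCR. Krt18 and Krt8 gave the largest signals of this list, with means of 250 and 96.5 in shARF and 129 and 57.1 in shSCR. For Epcam and Krt14 the groups overlapped, so the sums do not stand for the whole list. Also above it on every array were 2 of 7 lymphocyte, 2 of 5 endothelial and 2 of 4 plasmacytoid dendritic cell markers. Of 26851 probesets 20310 exceeded this level on at least 3 arrays, so passing it does not by itself show cell identity. The leukocyte gene Cd53, on the macrophage list, was higher in shARF by 0.66 ± 0.132 on the log2 scale (limma, adjusted p = 0.0442). The epithelial keratin gene Krt18 was higher by 0.93 ± 0.176 (limma, adjusted p = 0.0370), and the fibroblast gene Postn by 0.48 ± 0.082 (limma, adjusted p = 0.0271). The macrophage gene Cd68 pointed downwards instead, with mean signals of 46.7 in shARF and 59.6 in shSCR. It missed the threshold of 0.05 (limma, adjusted p = 0.109). For Cd14, Aif1 and Fcgr1 of the macrophage list the groups overlapped. Of the 10 fibroblast markers 1, Postn, was called higher and 0 lower. Thy1 and Pdgfra pointed downwards, by -0.38 and -0.22 on the log2 scale, and did not pass (limma, adjusted p = 0.0874 and 0.155). Dcn pointed upwards by 0.71 and did not pass either (limma, adjusted p = 0.0625). The part of these differences in the results on the family was not tested. Median signals were 41.97 to 42.86 in shARF and 42.3 to 42.5 in shSCR.

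Some members of the family rose in shARF cells, and others did not pass the test. Of the 7 members with a probeset of their own, Oasl2, Oas1a and Oas2 rose, 0 fell, and Oasl1, Oas1b, Oas1c and Oas3 did not pass the test (limma, Benjamini-Hochberg adjusted p under 0.05). Over all 20310 probesets tested, 3.63% were called, 1.63% higher and 2.00% lower. SAM, the test named for the study, called 5 of the 7 higher, adding Oasl1 and Oas1b, where it called 2.41% of all probesets higher. The same 5 were higher in shARF at an unadjusted p under 0.05 in limma, where 9.05% of all probesets were higher at that level. Each of the 7 log2 differences was above 0 (median 0.76, range 0.06 to 2.93). Over all 20310 probesets 10207 were above 0, and the median was 0.00. The signs of Oas1c and Oas3 turned in some fits with 1 array left out. The groups did not overlap for 5 of the 7, where 13.5% of all probesets lay wholly higher in shARF. Levels of different probesets cannot be set against each other on an array, so each member was compared with itself across arrays. In bulk RNA, more RNA per cell and a larger share of cells with the transcript cannot be told apart.

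**Figure D1:**
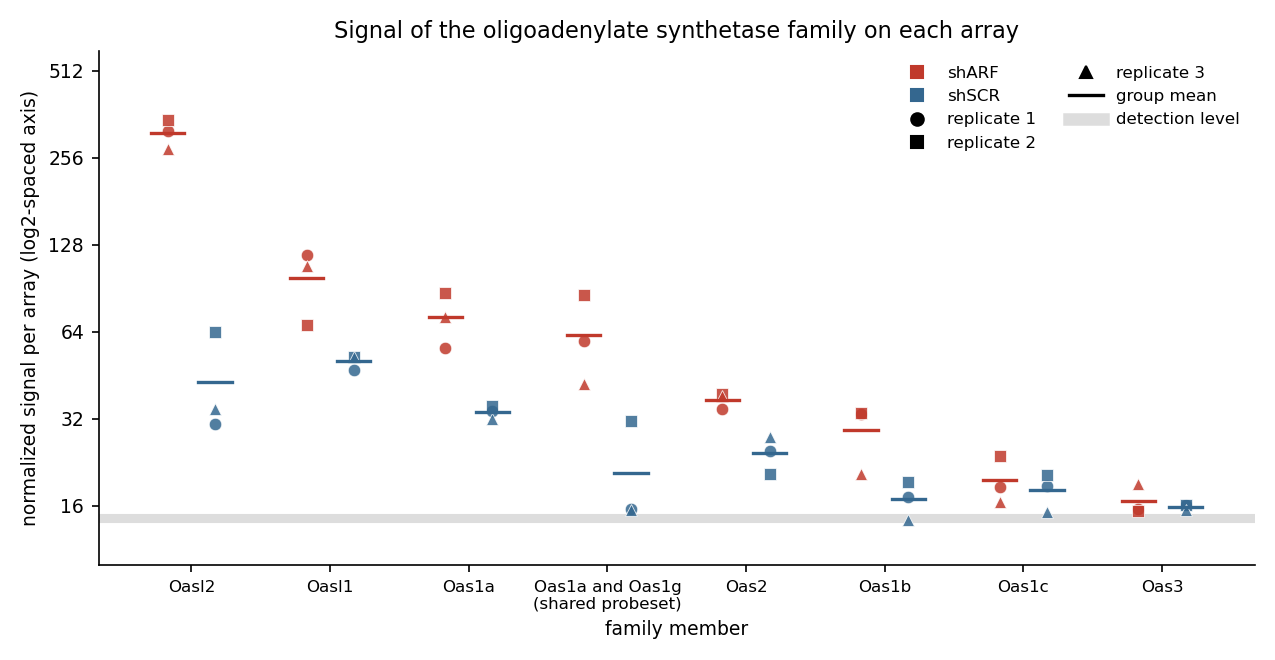
Normalized signal (log2-spaced axis) of each family probeset on each array, shARF in red and shSCR in blue, with the marker giving the replicate number, a line for the group mean and a grey band for the detection level of 14.1 to 14.9. Oasl2 shows the widest separation, Oasl1, Oas1a, the shared probeset, Oas2 and Oas1b show smaller ones, and the groups overlap for Oas1c and Oas3.

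Several promoters are shown because 6 of the 8 members had an entry in the RefSeq promoter table (build GRCm38.p6, 250 bases before to 50 after the annotated start), and the ISRE is the element through which ISGF3 acts. All lie on mouse chromosome 5. The windows were chr5:120907476-120907775 on the minus strand for Oas1a, chr5:120887564-120887863 on the minus strand for Oas1g, and chr5:120812465-120812764 on the minus strand for Oas1c. They were chr5:120777610-120777909 on the minus strand for Oas3, chr5:114922990-114923289 on the plus strand for Oasl1, and chr5:114896684-114896983 on the plus strand for Oasl2. Each is written 5' to 3' on the strand of its gene, and capitals mark every match to the ISRE core GAAANNGAAA on either strand (TTTCNNTTTC in the orientation shown).
Oas1a promoter: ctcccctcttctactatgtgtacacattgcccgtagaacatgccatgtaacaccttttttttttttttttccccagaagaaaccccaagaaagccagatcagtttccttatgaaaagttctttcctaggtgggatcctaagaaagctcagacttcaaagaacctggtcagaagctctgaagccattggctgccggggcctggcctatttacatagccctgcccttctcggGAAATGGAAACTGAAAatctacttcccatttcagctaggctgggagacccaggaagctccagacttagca
Oas1g promoter: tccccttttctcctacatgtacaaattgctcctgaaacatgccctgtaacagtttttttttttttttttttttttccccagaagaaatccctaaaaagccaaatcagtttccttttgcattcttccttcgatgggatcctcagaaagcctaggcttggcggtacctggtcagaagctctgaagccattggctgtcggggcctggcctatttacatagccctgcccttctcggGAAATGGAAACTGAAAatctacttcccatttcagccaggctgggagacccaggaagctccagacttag
Oas1c promoter: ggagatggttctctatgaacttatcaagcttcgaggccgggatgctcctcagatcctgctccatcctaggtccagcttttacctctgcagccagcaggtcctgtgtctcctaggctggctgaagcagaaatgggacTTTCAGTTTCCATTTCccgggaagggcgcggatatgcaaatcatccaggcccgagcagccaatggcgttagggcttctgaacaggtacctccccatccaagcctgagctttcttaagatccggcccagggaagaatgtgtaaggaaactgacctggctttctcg
Oas3 promoter: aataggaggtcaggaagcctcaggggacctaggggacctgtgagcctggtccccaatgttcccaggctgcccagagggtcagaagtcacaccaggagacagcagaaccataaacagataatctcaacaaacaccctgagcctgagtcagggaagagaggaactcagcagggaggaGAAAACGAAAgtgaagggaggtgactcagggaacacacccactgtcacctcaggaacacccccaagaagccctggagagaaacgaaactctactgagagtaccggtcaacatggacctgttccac
Oasl1 promoter: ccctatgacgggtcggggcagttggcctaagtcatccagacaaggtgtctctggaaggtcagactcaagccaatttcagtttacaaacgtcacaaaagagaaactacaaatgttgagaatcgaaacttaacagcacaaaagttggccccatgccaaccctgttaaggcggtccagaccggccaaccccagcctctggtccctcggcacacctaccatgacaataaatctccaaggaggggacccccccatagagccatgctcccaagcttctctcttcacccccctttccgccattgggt
Oasl2 promoter: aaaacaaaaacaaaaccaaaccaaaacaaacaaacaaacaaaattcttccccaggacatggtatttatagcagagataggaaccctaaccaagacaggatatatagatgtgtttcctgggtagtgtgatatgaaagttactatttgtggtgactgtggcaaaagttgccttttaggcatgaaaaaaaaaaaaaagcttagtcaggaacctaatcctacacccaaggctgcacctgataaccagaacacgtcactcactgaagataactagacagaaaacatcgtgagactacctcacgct

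The core was present in 4 of these 6 windows, and in 3.44% of all 32851 promoter windows of that length. Oas1a and Oas1g each held 2 overlapping copies just before the start, from -20 to -5 in Oas1a and from -18 to -3 in Oas1g. These windows were identical at 261 of 294 aligned bases (88.8%). Oas1c also held 2 overlapping copies, on the other strand from -114 to -99, and Oas3 held 1 copy from -75 to -66. No match was found in the windows of Oasl1 and Oasl2. The GAS pattern TTCNNNGAA, its own reverse complement and an element of interferon gamma responses, occurred once, in Oas1a from -98 to -90, clear of the ISRE core, and in 8.30% of all windows. Matches are letters in a window and not measured binding.

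**Figure D2:**
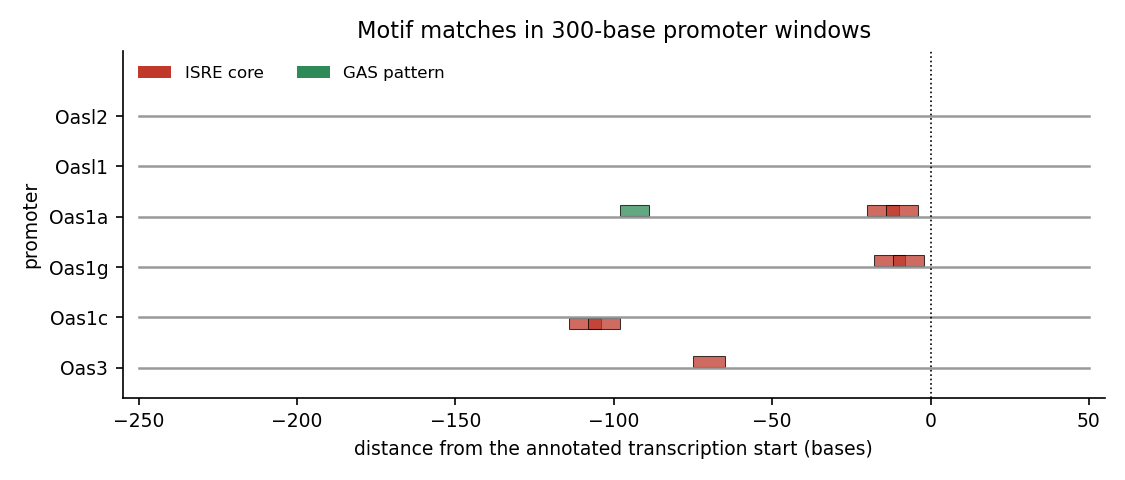
Matches to the ISRE core (red) and the GAS pattern (green) in 6 promoter windows of the family, by distance in bases from the annotated start; boxes above a line lie on the strand of the gene and boxes below it on the other strand. Oas1a, Oas1g, Oas1c and Oas3 have matches to the core, and Oasl1 and Oasl2 have none in this window.

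Oasl2 changed most within the family. It encodes an OAS-like protein that in the mouse joins an active synthetase unit to ubiquitin-like repeats. Its signal was 317, 346 and 275 in shARF replicates 1 to 3, against 30.6, 63.9 and 34.7 in shSCR replicates 1 to 3. The dimmest shARF array lay far above the brightest shSCR array, and within shSCR replicate 2 stood above the other arrays. The means were 313 ± 35.6 in shARF and 43.1 ± 18.2 in shSCR (SD, n = 3 each). Oasl2 rose by 2.93 ± 0.259 (SE) on the log2 scale, or 7.63-fold (limma, adjusted p = 0.00368), the difference ranked 3 among the 20310 probesets. Its call held with any 1 array left out (limma, adjusted p from 0.00063 to 0.0282). The promoter window printed for this gene was among those without a match to the ISRE core.

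Oasl1 lay close to the threshold. It encodes the other OAS-like protein, which lacks synthetase activity and in the mouse is known to hold back translation of Irf7 messenger RNA. Its signal was 118, 67.8 and 108 in shARF, against 47.3, 52.2 and 52.4 in shSCR. The groups did not overlap, and shARF replicate 2 lay much nearer to shSCR than the other shARF arrays did. The means were 98.2 ± 26.8 in shARF and 50.7 ± 2.89 in shSCR (SD, n = 3 each), a difference of 0.92 ± 0.196 on the log2 scale that did not pass (limma, adjusted p = 0.0537). Without shARF replicate 2 the difference was 1.16 and passed (limma, adjusted p = 0.00762). With any other single array left out it did not pass (limma, adjusted p from 0.112 to 0.154).

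Oas1a, an active 2-5A synthetase of the small class, rose as well. Its own probeset gave signals of 56.3, 87.3 and 72.1 in shARF, against 34.1, 35.4 and 32.0 in shSCR. The shSCR arrays were nearly level, and the spread was wider in shARF, where replicate 2 was highest. The means of 71.9 ± 15.5 in shARF and 33.8 ± 1.74 in shSCR (SD, n = 3 each) correspond to a rise of 1.07 ± 0.149 on the log2 scale, or 2.09-fold (limma, adjusted p = 0.0143). The call was lost without shARF replicate 3, shSCR replicate 1 or shSCR replicate 3 (limma, adjusted p = 0.0508, 0.0567 and 0.0702), with the log2 difference between 1.03 and 1.07 in these cases.

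Oas1g, a second active synthetase that neighbours Oas1a, could be read only together with it. The probeset annotated to both genes gave 59.5, 85.5 and 42.4 in shARF, against 15.6, 31.4 and 15.5 in shSCR. The groups did not overlap, and replicate 2 was highest in each of them. In shSCR replicate 2 stood well above the other arrays on the shared probeset, whereas the Oas1a probeset was nearly level there. The shared probeset differed by 1.61 ± 0.335 on the log2 scale and passed narrowly (limma, adjusted p = 0.0496). The call was lost with 5 of the 6 arrays left out in turn (highest adjusted p in limma 0.156) and held without shSCR replicate 2 (limma, adjusted p = 0.0277). How much of this signal came from Oas1g was not tested, and the value was not counted among the 7 members above.

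Oas2, the synthetase with a pair of joined OAS units, showed a smaller rise. Its signal was 34.5, 39.0 and 38.3 in shARF, against 24.9, 20.6 and 27.7 in shSCR. The groups did not overlap, and replicate 2 was the highest shARF array but the lowest shSCR array. The means were 37.3 ± 2.45 in shARF and 24.4 ± 3.59 in shSCR (SD, n = 3 each), and the log2 difference was 0.62 ± 0.115, or 1.54-fold (limma, adjusted p = 0.0348). Leaving out any 1 of the 6 arrays ended this call, with log2 differences of 0.50 to 0.72 and adjusted p between 0.0513 and 0.106 in limma.

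Oas1b, listed by RefSeq as a transcribed pseudogene in the C57BL/6J assembly and known as the locus of flavivirus resistance in mice, had low signals. They were 33.3, 33.6 and 20.7 in shARF, against 17.2, 19.3 and 14.3 in shSCR, and replicate 3 was the dimmest array in each group. The groups did not overlap, since the lowest shARF array lay just above the highest shSCR array. The difference of 0.76 ± 0.202 on the log2 scale did not pass (limma, adjusted p = 0.0959). Without shARF replicate 3 it was 0.99 and passed (limma, adjusted p = 0.0271). It did not pass with any other single array left out (limma, adjusted p from 0.138 to 0.237).

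Oas1c and Oas3 showed no detectable difference near the detection level. Oas1c, another gene of the small class, gave 18.6, 23.8 and 16.6 in shARF, against 18.8, 20.5 and 15.2 in shSCR. The arrays of the groups were interleaved, and in each group replicate 2 was highest and replicate 3 lowest. Its log2 difference was 0.11 ± 0.157 (limma, adjusted p = 0.731). Oas3, the synthetase with a row of joined OAS units, gave 15.6, 15.4 and 19.1 in shARF, against 16.2, 16.1 and 15.5 in shSCR. Only shARF replicate 3 stood apart, and the log2 difference was 0.06 ± 0.092 (limma, adjusted p = 0.740). Both promoter windows hold the ISRE core, as printed above. Normalization can understate folds of signals so near the detection level, so a small increase of these transcripts could be missed. Whether this happened here was not tested.

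The other Oas genes on the array were too dim to test. Oas1d, Oas1e, Oas1f and Oas1h are neighbours of the members on chromosome 5, and 0 of the 4 was above the detection level on the 3 arrays needed. Oas1f was above it on 1 array, of shSCR, and the other genes on none. Oas1d gave 6.02, 6.33 and 6.02 in shARF, against 5.74, 5.43 and 5.55 in shSCR, Oas1e lay between 7.36 and 9.55 on all arrays, and Oas1h between 5.53 and 6.22. Oas1f gave 12.6 to 14.4 in shARF and 13.3 to 14.4 in shSCR. No fold is given for these genes.

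**Figure D3:**
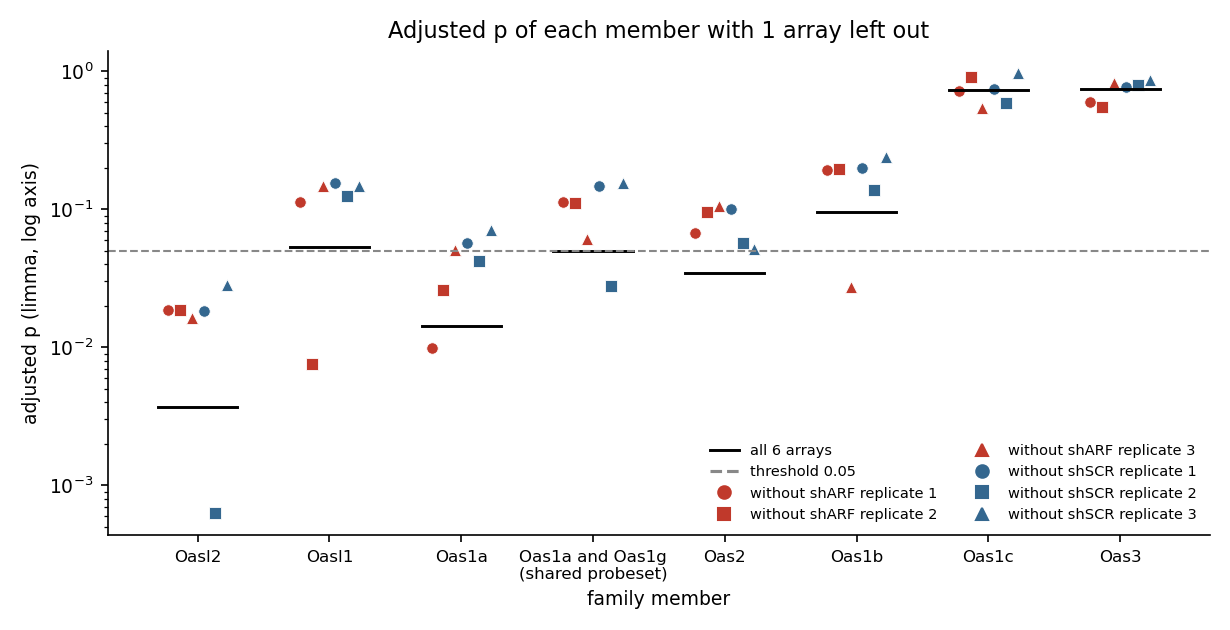
Adjusted p (limma, log axis) of each family probeset with all 6 arrays (black line) and with each array left out in turn, red for shARF arrays and blue for shSCR arrays, with the marker giving the replicate number; the dashed line is the threshold of 0.05. Oasl2 stays under the threshold in all 6 cases, Oas2 in none, and Oasl1 falls under it only without shARF replicate 2.

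Members were also set against each other by their changes. For each of 21 pairs, the log2 ratio of the 2 probesets was taken on every array and compared between groups with a two-sided exact permutation test, which cannot go below 0.1 with 3 arrays against 3. The estimated change of Oasl2, the largest of the family, lay above the other 6 by 1.87 (Oas1a) to 2.87 (Oas3) on the log2 scale. Its ratio did not overlap between groups in 6 of 6 pairs (exact permutation p = 0.1 in each). These pairs share the Oasl2 signal and were ordered by the changes themselves, so they are not independent observations. In all, 11 of the 21 pairs reached the smallest possible p of 0.1, and 0.191 was the smallest after Benjamini-Hochberg adjustment (exact permutation). By the same test the changes of Oas1a and Oasl1 differed by 0.15 (Oas1a minus Oasl1; exact permutation p = 0.9), and Oas1b exceeded Oas1c by 0.65 (exact permutation p = 0.1).

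Replicate 2 arrays were often the brightest for these genes. Among the 7 members, shARF replicate 2 was the highest shARF array for 5, against 37.2% of all probesets tested, and shSCR replicate 2 was the highest shSCR array for 4, against 33.2%. Oasl1 was among the exceptions in shARF, where replicate 2 was its lowest array. With both replicate 2 arrays left out, Oasl2 and Oasl1 differed by 3.18 and 1.19 on the log2 scale and passed (limma, adjusted p = 0.0062 and 0.0191). Oas1a and Oas2 then did not pass, at 0.95 and 0.47 (limma, adjusted p = 0.0691 and 0.137). Fewer arrays entered this fit, and calls over all probesets fell from 331 to 114 higher and from 406 to 60 lower. Whether the lost calls depend on replicate 2 in particular was not tested.

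The 3 measured genes listed for events after the synthetases did not pass the test, and they cover only part of that pathway. Of these, 0 were called by limma, at an unadjusted p under 0.05 also 0 in either direction, and SAM called 0. Over all probesets limma called 1.63% higher and 2.00% lower, so 0 calls among 3 genes lie near that share. Abce1, which restrains the 2-5A response and recycles ribosomes, gave signals of 1123, 1105 and 1122 in shARF, against 1182, 1100.4 and 1215 in shSCR. Pde12, a phosphodiesterase that degrades 2-5A, differed by -0.17 ± 0.116, and Akap7, an anchoring protein with such a phosphodiesterase domain, by -0.06 ± 0.063, both on the log2 scale. The medians of the list and of all probesets were -0.06 and 0.00.

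Most measured genes that share the RNA trigger or the interferon input with the family rose. Of 13 measured genes, 10 rose and 0 fell, where limma called 1.63% of all probesets higher and 2.00% lower. Their median log2 difference was 0.91. SAM called the same number, 10, where it called 2.41% of all probesets higher. Whether this share of the 13 differs from that of the family was not tested. The list was drawn up with earlier results of these data known, so its count is a description. Ifih1, the RNA sensor MDA5, gave 165, 131 and 156 in shARF, against 42.1, 53.4 and 36.0 in shSCR, a log2 rise of 1.79 ± 0.154 (limma, adjusted p = 0.00345). Zbp1, a sensor of Z-form nucleic acid, rose by 0.97 ± 0.082. Stat2, a subunit of ISGF3, rose by 1.19 ± 0.114 and Irf9, its DNA-binding partner, by 0.91 ± 0.138. Irf7, a factor that amplifies interferon transcription, rose by 1.77 ± 0.243. The RNA sensor genes Ddx58 and Dhx58 rose by 1.13 and 1.03, the RNA editing enzyme Adar by 0.68, the RNA-activated kinase Eif2ak2 by 0.58 and the factor Irf1 by 0.44. The other Irf1 probeset, with a log2 difference of 0.20, missed the threshold (limma, adjusted p = 0.381), and its groups overlapped. Tlr3, Irf3 and Mavs did not pass, with log2 differences of 0.15, 0.02 and -0.06. The number called was 4 and 5 without shSCR replicates 1 and 3, and 6 without shARF replicate 1. Over all probesets, the number called higher fell from 331 to 106, 91 and 154 in these fits, in the same order.

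**Figure D4:**
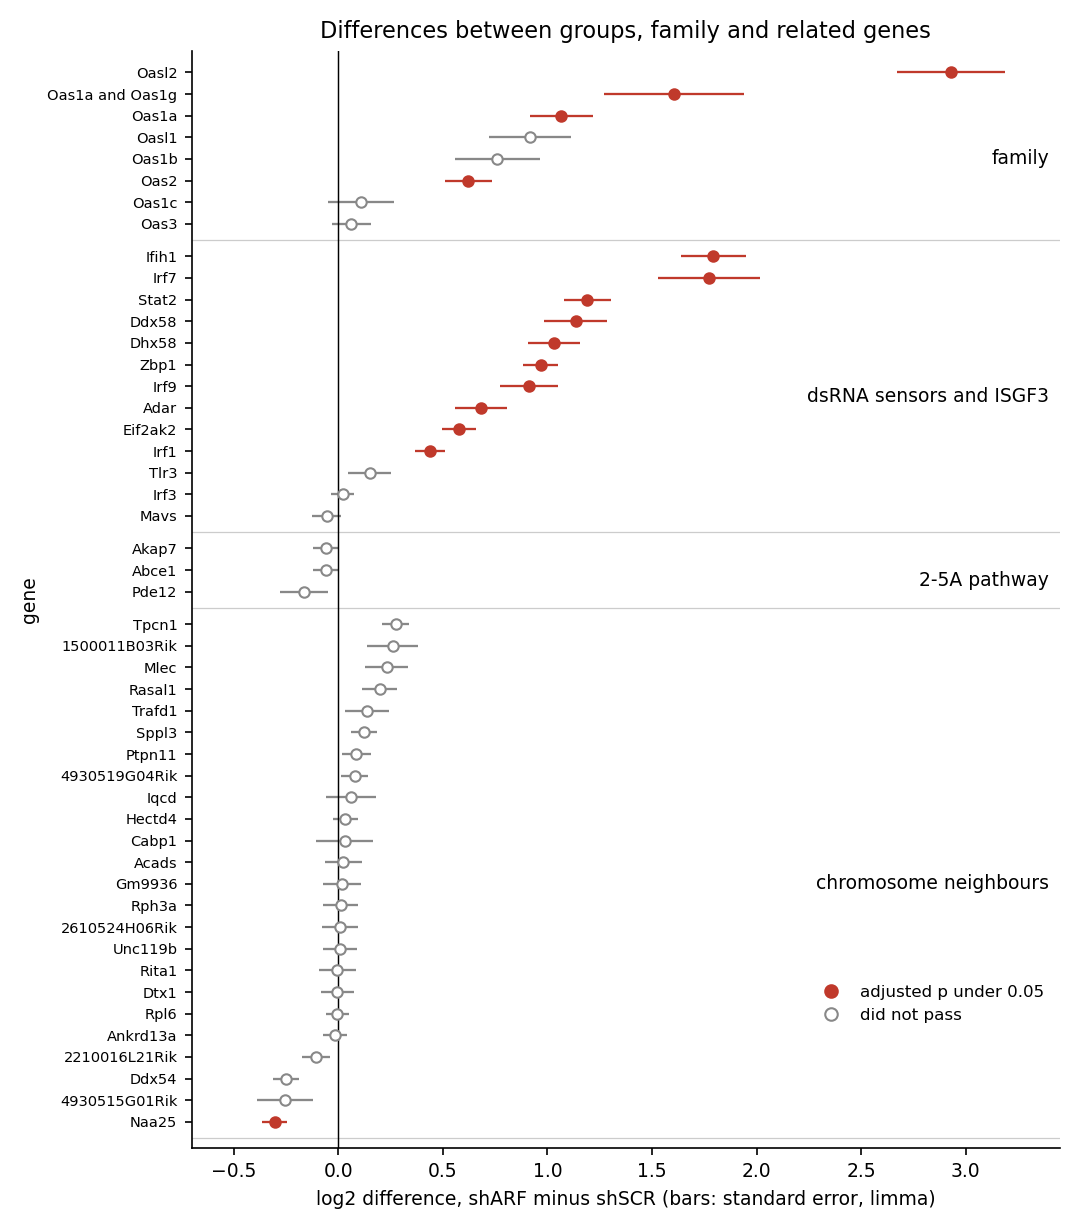
Log2 difference, shARF minus shSCR, with its standard error from limma, for the family, the genes of dsRNA sensing and ISGF3, the measured genes of the 2-5A pathway and the chromosomal neighbours of the family; filled red points passed at an adjusted p under 0.05. Oasl2 at 2.93 lies beyond every other gene drawn, and the neighbours lie between -0.31 and 0.27.

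Few of the genes beside the family on chromosome 5 passed the test. In the order of the RefSeq table the family forms a cluster of Oasl2 and Oasl1 and a second cluster that runs from Oas2 to Oas1d. The 6 nearest measured genes on each side of each cluster gave 24 neighbours, of which 0 rose, 1 fell and 23 did not pass, near the shares over all probesets (1.63% higher and 2.00% lower). The difference from the family was not tested. SAM called 0 higher and 1 lower, and 2 neighbours were higher and 2 lower when limma's p under 0.05 was left unadjusted. Their median log2 difference was 0.02. The falling gene, Naa25, encodes the auxiliary subunit of an acetyltransferase of protein N termini, and its mean signal was 274 in shARF and 339 in shSCR. It differed by -0.31 ± 0.060 on the log2 scale (limma, adjusted p = 0.0420), and this call did not survive the loss of any array. Dtx1 and Rph3a, which flank the Oas cluster, differed by -0.0048 and 0.012.

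Genes most like each called member were sought over all 6 arrays. Likeness was the root mean square difference of log2 values, after each gene was centred on its shSCR mean, among 15138 genes outside the family. It is a description over 6 arrays that share 1 contrast. The nearest to Oasl2 were Ifit3, Ifi27l2a and Rtp4, at 0.30 log2 units each, and these rose by 2.64, 2.75 and 3.21. The nearest to Oas1a were Tnnt2, Helz2 and Sulf2, at 0.14 to 0.16, and those to Oas2 were Fibin, Chrna1 and Lrrc17, at 0.09 to 0.12. For the uncalled Oasl1 the nearest gene was the eosinophil chemokine gene Ccl11, at 0.11, and for Oas1b the interferon-inducible gene Ifi203, at 0.15, and these last 2 were named after their values were seen.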

How the data were processed

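Total RNA of 6 samples was amplified to biotinylated cDNA and hybridised to arrays, per the labels' protocols. The authors normalized the intensities with RMA (background correction, quantile normalization, summary over probes) and kept core probesets, with the program Affymetrix Expression Console, per the series text and the submitters' processing notes. The deposited intensity values are on a linear scale. RMA shrinks folds of dim probesets, and quantile normalization hides a shift common to most genes. The array's build and the program's version are not given in the sources used here.

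Values were turned to log2. Of 26851 probesets, 20310 exceeded the 25th percentile of their array on at least 3 arrays and were tested with limma 3.58.1 in R 4.3.3 (lmFit, eBayes, two-sided, Benjamini-Hochberg over all of them, threshold 0.05). The test was checked on simulated data. Probesets were named from the platform annotation: 21056 had 1 gene symbol, 1450 several and 4345 none. A gene with several single-gene probesets was represented by the brightest. SAM, the test named in the series text, was rebuilt with all 20 label arrangements. Promoters come from RefSeq, and alignments from Biopython 1.88. Protein sequences were not analysed here.

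Members and lists were chosen with earlier results of these data known. Named genes were all members and other Oas genes, Cdkn2a, every called gene of each list and the 4 with the smallest p, called neighbours, and the 3 genes most like each called member. Tlr3, Irf3, Mavs, Dtx1, Rph3a, Cd68, Cd14, Aif1 and Fcgr1 were named after their values were seen. So were Thy1, Pdgfra, Dcn, Krt8, Epcam and Krt14. Alternatives covered the filter, pseudocount, normalization, variance model, test, replicate block and left-out arrays. The number of arrays limits the precision.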

Additional observations from a re-analysis of the deposited data

How the results depend on the processing

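Oasl2 kept its direction and its call in all alternatives run, with log2 differences of 2.51 to 3.26, and Cdkn2a did likewise, between -0.98 and -0.81. The number of members called higher was 5 with a mean-variance trend and 5 in SAM, where Oasl1 and Oas1b passed as well, and 1 to 3 with 1 array left out. Over all alternatives, Oasl1 passed in 7 of 16, Oas1b in 4 of 15, Oas1a in 12 of 16 and Oas2 in 6 of 15. With 1 array left out, Oas1c ranged from -0.037 (without shARF replicate 2; -0.013 without shSCR replicate 3) to 0.225 and Oas3 from -0.038 (without shARF replicate 3) to 0.116 on the log2 scale, so their signs turned, and neither was called in any case. Oas1b, Oas2, Oas1c and Oas3 were too dim for the stricter detection level (50th percentile) and have no value there. Without a detection filter Oas2 lost its call (limma, adjusted p = 0.0525), and the cause was not tested. The probeset shared by Oas1a and Oas1g lost its call without the filter (limma, adjusted p = 0.07), after a repeat of quantile normalization (0.0533) and with robust empirical Bayes (0.0538). Over all tested probesets, 331 were called higher and 406 lower. With 1 array left out these counts were 91 to 201 and 94 to 192, and with both replicate 2 arrays left out 114 and 60, where fewer samples entered. The trend gave 703 and 856. Lower calls numbered 233 without the filter, 705 at the stricter level, 668 with log2(signal + 16) and 742 in SAM. The sensor and ISGF3 genes called higher were 4 to 9 with 1 array left out and 6 without both replicate 2 arrays. Neighbours called higher were 1 at the stricter level, with log2(signal + 16), after repeated quantile normalization and with the trend. Neighbours called lower were 2 at the stricter level, with log2(signal + 16) and with the trend, and 0 without the filter, without both replicate 2 arrays and with any 1 array left out. The shorter core GAAANNGAA occurred in 8.56% of promoter windows. The replicate numbers are not known to pair the arrays: deviations of same-numbered arrays correlated at 0.08, 0.05 and 0.00 across probesets, and 3 of 6 arrays were closest to their own number. A fit with the replicate block called 216 probesets higher and 202 lower and 0 neighbours lower, kept the member count at 3, called Oas1b (limma, adjusted p = 0.0317) and not Oas2 (0.0658).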
